A study of Mus musculus with 105 samples.

Results

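Snrpn, Snhg14, Ndn and Magel2 on one side, and Peg3, Usp29 and Zim1 on the other, belong to 2 imprinted domains of mouse chromosome 7. These 7 genes were chosen by name out of 52108 genes in the bulk RNA-seq tables, and all 7 had rows in every bulk table. In the single-cell tables, Ndn and Magel2 had no rows among the spliced and unspliced allele counts. Their levels and the share of each allele were followed over 5 time points of embryonic stem cell differentiation.

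In an imprinted domain a methylation mark set in the germ line decides which parental copy is transcribed. In most tissues the Snrpn domain is active from the paternal copy: Snrpn encodes a protein of the splicing machinery, Snhg14 is a long non-coding transcript that hosts small nucleolar RNAs and runs antisense to Ube3a, and Ndn and Magel2 encode MAGE family proteins. In the Peg3 domain, Peg3 encodes a zinc finger protein and Usp29 a member of the ubiquitin-specific protease family, both known as paternally expressed, whereas Zim1 encodes a zinc finger protein known as maternally expressed. Cultured embryonic stem cells are known to lose such marks at some loci.

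The cells were TX1072, a female F1 hybrid mouse embryonic stem cell line with 1 genome from C57BL6/J (B6) and 1 from Cast/EiJ (Cast), in which Xist on the B6 X chromosome can be switched on by doxycycline through an inserted promoter, with the rtTA activator in Rosa26. A pair of deletion lines derived from it, each represented by 1 clone, lacks the region around Xist on the B6 X chromosome (TXdXicB6) or on the Cast X chromosome (TXdXicCast). Cells were kept in serum with LIF and the inhibitors of 2i (day 0) and differentiated by withdrawal of 2i and LIF for up to 4 days. Bulk RNA-seq covered each line at days 0, 1, 2, 3 and 4 with 3 replicates, and single-cell RNA-seq covered TX1072 at the same days with 1 culture per day. Which strain was the mother is not given in the sources used here, so alleles are named by strain and not by parent.

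The 45 bulk libraries held between 16906263 and 57920260 counts. Reads that overlapped a B6/Cast SNP made up 17.9 to 20.3% of the counts in TX1072, 5.21 to 34.9% in TXdXicB6 and 22.9 to 34.2% in TXdXicCast. The TXdXicB6 libraries of day 0 replicate 1 (5.21%), day 2 replicate 2 (9.57%) and day 2 replicate 1 (20.3%) and the TXdXicCast library of day 3 replicate 3 (22.9%) stood below the rest of their lines. The B6 genome took 50.5 to 51.4% of allele-specific (AS) counts in every library, so no library was shifted as a whole. The TXdXicCast RNA of day 0 was described as degraded and was fragmented more mildly. TX1072 and the deletion lines were made with different kits and sequencers, so line and library type cannot be told apart where TX1072 is compared with a deletion line.

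The labelled stem cell identity was checked first. All 7 naive pluripotency markers fell from day 0 to day 4 in TX1072, and their summed level went from 5641 to 1063 CPM, the count scaled to the library total. Klf4, Tfcp2l1, Esrrb and Zfp42 fell by 5.66, 4.72, 3.48 and 3.15 on the log2 scale. All 4 formative markers rose, Fgf5 from 0.111 to 142 CPM, with Dnmt3b, a de novo DNA methyltransferase, the most abundant at 571 CPM. Markers of other cell types also moved: 6 of 7 neural markers rose (summed level 78.0 to 207 CPM, with Nes the most abundant gene), as did 6 of 6 extraembryonic endoderm markers (5.32 to 35.8 CPM, Dab2) and 1 of the 2 trophoblast markers tested (Eomes, 93.6 CPM at day 4). The other, Cdx2, fell from 10.05 to 2.20 CPM. Over all genes tested in TX1072, 30.2% were higher and 29.4% lower at day 4 than at day 0. The 4 fibroblast markers summed to 23.6 CPM at day 0 and 13.4 CPM at day 4. Col3a1 rose from no count at day 0 to 1.21 CPM at day 4. Col1a2 fell from 10.1 to 2.08 CPM and Col1a1 from 7.66 to 4.31 CPM. At day 0 in TX1072, Zfp42 (8.15% B6), Dab2 (0% B6 of 73 allele-specific counts) and Col1a2 (1.72% B6) were read mostly from Cast. In bulk samples a change in the number of cells of a type and a change in RNA per cell cannot be told apart, and the part of these other cell types in the results below was not tested.

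The allele of a read was decided at SNPs inside the exons. Snrpn (chr7:59982495-60140219, minus strand, mm10) holds 9 exonic SNPs, Snhg14 (chr7:59307924-59975759, minus) 89, Ndn (chr7:62346569-62350262, plus) 11 and Magel2 (chr7:62377010-62381640, plus) 6. Peg3 (chr7:6703892-6730431, minus) holds 50, Usp29 (chr7:6730578-6967219, plus) 71 and Zim1 (chr7:6671269-6696450, minus) 58. The first coding SNP of the longest transcript is shown for the 4 genes discussed most, to show what separates the alleles. Each sequence is 30 bases of the transcript strand of the B6 reference in mm10, and the capital marks the SNP, with positions counted from 1 at the 5′ end.
Snrpn A16C, chr7:59986788-59986817: ggagaacttggtttcAatgactgtggaggg
Ndn T16C, chr7:62348442-62348471: actttgcagccgaggTccccgactgtgaga
Peg3 A16G, chr7:6711889-6711918: acactctcacatgacAcaaggccactcatc
Usp29 C16T, chr7:6961333-6961362: tgataatgttacaggCgtagtggttagtgg

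Some of these genes share exon sequence with others. Snrpn shares 589 exonic bases with genes on its own strand, among them Snurf, Snhg14 shares 1803 bases with Ube3a on the opposite strand and Usp29 shares 2582 bases on the opposite strand, with Zim3. Whether the bulk counting used strand is not given in the sources used here, so reads in these stretches may belong to the partner gene.

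In TX1072 all 7 genes were higher at day 4 than at day 0, where 30.2% of the 18871 genes tested were higher (edgeR quasi-likelihood test, adjusted p under 0.05). The median log2 change of the 7 genes was 2.00, against -0.034 over all genes tested. At day 1, day 2 and day 3 the shares of genes higher were 23.5, 28.8 and 28.1%, with 6, 7 and 7 of the 7 genes among them. At day 2, Ndn (0.33) and Snhg14 (1.91) no longer passed the test without replicate 1, nor Zim1 (0.95) without replicate 3. Magel2 changed by the largest factor and was the lowest in CPM at day 0. Peg3 was the most abundant in CPM at both days, and Zim1 the lowest at day 4.

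Snrpn stood at 79.6, 68.4 and 87.6 CPM in the 3 day 0 libraries and at 354, 318 and 372 CPM at day 4. The groups did not overlap, and the log2 change was 2.00 (SE 0.12, adjusted p = 5.39e-11). At day 1 its libraries held 308, 263 and 309 CPM (log2 change 1.82, SE 0.12, adjusted p = 5.88e-10). Between day 1 and day 4, a contrast added after the levels were seen in which 58.9% of genes changed, it was 0.18 (SE 0.11, adjusted p = 0.172).

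Snhg14 varied far more between replicates than its neighbour. Its day 0 libraries held 39.4, 8.85 and 50.9 CPM and its day 4 libraries 148, 59.2 and 235 CPM, with replicate 2 lowest on both days. The log2 change of 2.01 (SE 0.61) had an adjusted p of 0.00865, and it was 1.95 without replicate 3, no longer past the threshold. At day 1 the change was 1.50 (SE 0.60, adjusted p = 0.0498), and it was not past the threshold with DESeq2, with TMM from autosomal genes or without replicate 1 or 3.

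Ndn, which encodes necdin, rose late. The day 0 libraries held 12.0, 13.9 and 14.8 CPM. A day later the level was 17.2, 16.6 and 16.2 CPM, and the day 4 libraries reached 43.9, 39.9 and 40.6 CPM. The day 1 change of 0.22 (SE 0.11) did not pass the test (adjusted p = 0.131), whereas the changes at day 2 (0.44, adjusted p = 0.00317, and 0.33, adjusted p = 0.0799, without replicate 1), day 3 (0.79, adjusted p = 1e-05) and day 4 (1.47, SE 0.11, adjusted p = 3.08e-09) did. The change from day 1 to day 4 was 1.25 (SE 0.11, adjusted p = 2.64e-08).

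Magel2 was close to undetected in stem cells. The 3 day 0 libraries together held 4 counts, against 854 at day 4, a ratio of 214 between the CPM with a 95% counting interval of 83.2 to 787. Its level was 1.58, 1.59 and 1.49 CPM at day 1, and 9.19, 9.99 and 9.41 CPM at day 4.

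Peg3 had the highest level of the 7 genes in CPM, which is not scaled to gene length. The day 0 libraries held 172, 167 and 151 CPM. By day 1 the level was 1261, 1154 and 1318 CPM, and the day 4 libraries held 1972, 1924 and 2121 CPM. The log2 change was 2.85 (SE 0.12, adjusted p = 2.67e-12) at day 1 and 3.48 (SE 0.12, adjusted p = 7.23e-14) at day 4.

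Usp29, which starts next to Peg3 and is transcribed the other way, rose from 12.6, 6.82 and 5.53 CPM to 30.3, 27.2 and 28.4 CPM at day 1, and held 28.3, 29.3 and 28.0 CPM at day 4 (log2 change from day 0 1.63, SE 0.19, adjusted p = 7.12e-07). From day 1 to day 4 it changed by -0.067 (SE 0.18, adjusted p = 0.775). Zim1 rose from 0.654, 0.617 and 0.461 CPM to 2.24, 2.27 and 1.69 CPM (1.67, SE 0.31, adjusted p = 0.000162). Its day 1 change of 1.15 had an adjusted p of 0.00626, and it was 0.74 and not past the threshold without replicate 3.

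**Figure D1:**
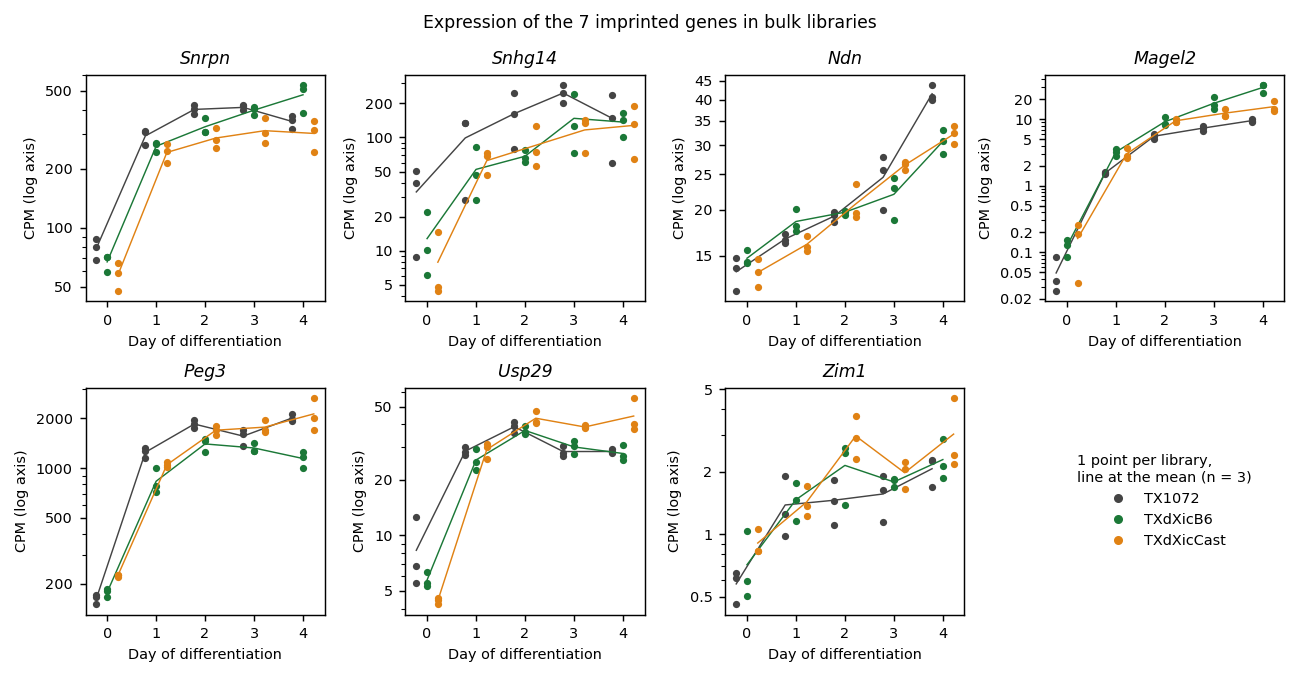
Level of each of the 7 genes in CPM (log axis) against day of differentiation, with 1 point per bulk library and a line at the mean of the 3 replicates of each line. All genes are higher at day 4 than at day 0 in every line, with Ndn rising last and Magel2 starting under 0.3 CPM.

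Levels of different genes were set side by side per kilobase of exon (RPKM). At day 0 in TX1072 the order was Snrpn at 36.4, Peg3 at 12.2, Ndn at 3.67, Snhg14 at 1.27, Usp29 at 0.459, Zim1 at 0.0714 and Magel2 at 0.0105 RPKM. At day 4 Snrpn held 161 ± 13 RPKM (SD, n = 3) and Peg3 151 ± 7.7, which did not differ beyond their spread. Ndn followed at 11.2, Snhg14 at 5.64 ± 3.4, Magel2 at 2.06, Usp29 at 1.58 and Zim1 at 0.256 RPKM.

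The same 7 genes were higher at day 4 than at day 0 in both deletion lines, where 30% (TXdXicB6) and 36.2% (TXdXicCast) of the 19885 genes tested were higher. For Peg3 the log2 change was 2.54 (SE 0.13) in TXdXicB6 and 2.99 (SE 0.14) in TXdXicCast, and for Snrpn 2.69 (SE 0.16) and 2.16 (SE 0.15). Snhg14 changed by 3.29 (SE 0.51) and 3.76 (SE 0.52), Ndn by 0.92 and 1.01, Usp29 by 2.14 and 3.08 and Zim1 by 1.50 and 1.48. From day 1 to day 4, where 56.6% (TXdXicB6) and 59.4% (TXdXicCast) of genes changed, Peg3 rose by 0.33 and 0.89 and Ndn by 0.61 and 0.88, and Usp29 changed by -0.0048 and 0.48, the latter past the test. Unlike in TX1072, Snrpn rose past the test in TXdXicB6 (0.76, SE 0.15, adjusted p = 7.94e-05), but not in TXdXicCast (0.20, SE 0.15, adjusted p = 0.252). Snhg14 changed by 1.26 and 0.90, the former past the test, and Zim1 by 0.51 and 0.96, the latter past it. Magel2 rose by 3.11 and 2.23. Magel2 went from 10 to 2964 counts in TXdXicB6 (CPM ratio 246, interval 133 to 513) and from 13 to 1708 in TXdXicCast (137, interval 79.6 to 257).

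The deletion lines were compared with each other over days 1 to 4, leaving out the degraded day 0. Of the genes tested, 8.34% differed, and 4 of the 7 genes were among them. Peg3 was higher in TXdXicCast by 0.48 on the log2 scale (SE 0.063, adjusted p = 8.8e-06), with 1707, 2018 and 2642 CPM at day 4 against 1004, 1247 and 1172 CPM in TXdXicB6. Usp29 was higher in TXdXicCast by 0.36 (SE 0.064, adjusted p = 0.000448). Snrpn was lower by 0.32 (SE 0.074, log2 change -0.32, adjusted p = 0.00547) and Magel2 was lower too (-0.37, SE 0.10, adjusted p = 0.0209). Without replicate 2 the values of Snrpn and Magel2 were -0.23 and -0.27 and no longer passed the test. Each line was 1 clone, so the deletion and other differences between clones cannot be told apart.

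In the bulk libraries, every gene with enough AS counts was read from both alleles. Counts of the 3 replicates were summed for each of the 105 combinations of gene, line and day, and a combination with at least 20 AS counts was classed as biallelic (BA) with at least 20% on each allele, monoallelic (MA) with at least 90% on 1 allele, and skewed between. Of the 105 combinations 101 were BA, 0 were skewed, 0 were MA and 4 had too few counts. The 4 were Magel2 at days 0 and 1 in TX1072 and at day 0 in each deletion line. Over all classed autosomal genes, 92.2% were BA and 3.77% MA in TX1072 at day 0, and 95.9% and 1.79% at day 4, so the class of these genes was that of most genes. In TX1072 at days 1 to 3, 92.4, 94 and 95.6% were BA and 3.7, 2.9 and 1.93% MA. In TXdXicB6 at days 0 to 4, 93.2, 92.9, 95.1, 95.2 and 96.1% were BA and 3.29, 3.33, 2.19, 2.11 and 1.68% MA. In TXdXicCast 91.8, 92.8, 94.3, 95.7 and 95.9% were BA and 3.93, 3.41, 2.63, 1.73 and 1.83% MA.

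The shares in single libraries showed how wide the spread was around parity. Among libraries with at least 20 AS counts, the B6 share of Snrpn ran from 43.6 to 51.9% with a median of 47.7% over 45 libraries. Snhg14 ran from 25.8 to 53.1% (median 44.8%, 44 libraries), Ndn from 24.1 to 72.1% (51.2%, 40 libraries) and Magel2 from 14.8 to 69.2% (41.1%, 21 libraries). Peg3 ran from 55.4 to 77.9% (61.9%, 45 libraries), Usp29 from 53.9 to 84.4% (67.6%, 44 libraries) and Zim1 from 28.6 to 80% (53.7%, 33 libraries). Peg3 and Usp29 were thus above parity in every such library.

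**Figure D2:**
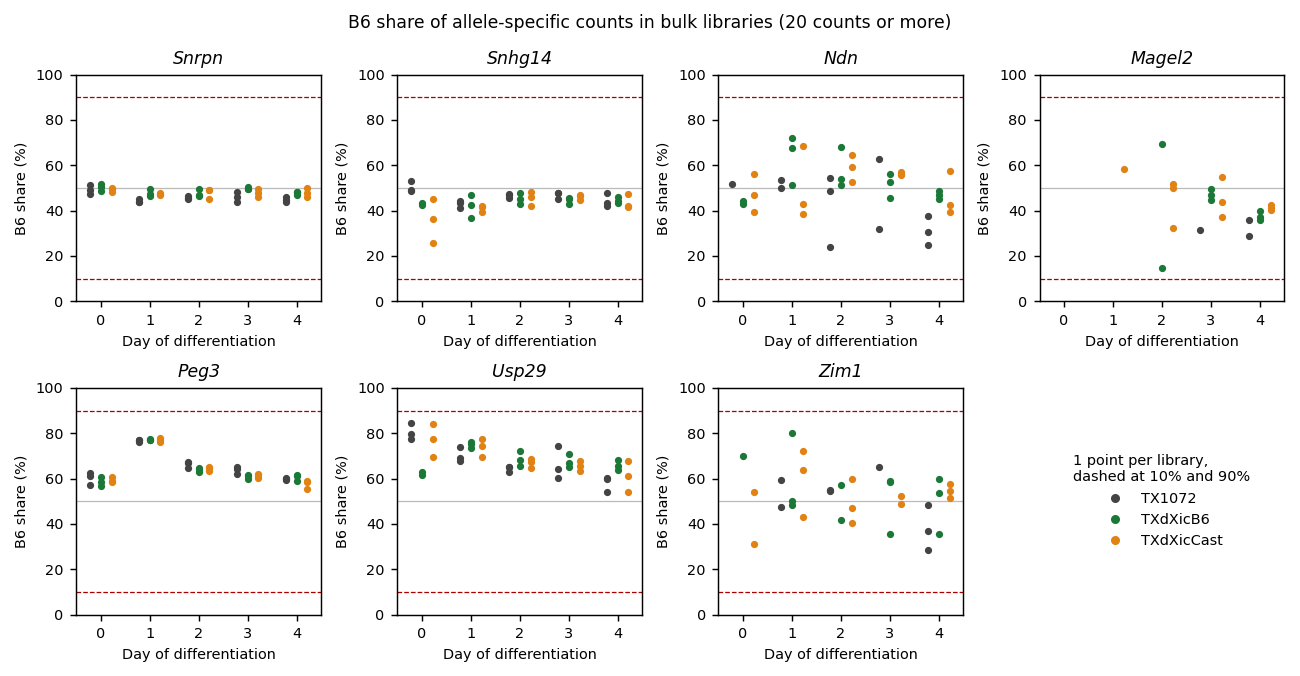
B6 share of the AS counts in percent for each gene against day of differentiation, with 1 point per bulk library. Peg3 sits near 60% at day 0, near 77% at day 1 and near 60% again at day 4 in all 3 lines.

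The departure from parity was tested over the 5 days in each line. In TX1072, 53.6% of 16923 genes departed from equal shares, in TXdXicB6 56.8% and in TXdXicCast 58.7%, so a call alone was common. Peg3 favoured B6 with a log2 B6/Cast ratio of 0.93 (SE 0.020) in TX1072, 0.87 (SE 0.020) in TXdXicB6 and 0.85 (SE 0.018) in TXdXicCast, with adjusted p between 6.27e-63 and 3.85e-60. Usp29 favoured B6 by a like amount, at 1.09 (SE 0.070), 1.07 (SE 0.075) and 1.15 (SE 0.063). Snrpn favoured Cast slightly, at -0.24 (SE 0.026), -0.071 (SE 0.023) and -0.11 (SE 0.022), all past the test. The TXdXicB6 value was -0.051 without replicate 1 and -0.047 without the libraries of low AS share, no longer past the threshold in either. Snhg14 favoured Cast at -0.25 (SE 0.039), -0.37 (SE 0.048) and -0.40 (SE 0.047). Ndn was below parity in TX1072 (-0.42, SE 0.17, adjusted p = 0.0271) and not past the threshold without replicate 1 or 2, at -0.39 and -0.42. It was not called at 0.13 and 0.082 in the deletion lines. Zim1 was not called in any line (0.074, 0.22 and -0.056, each SE between 0.16 and 0.23). Magel2 had no AS count at day 0 in TX1072 and TXdXicCast and no ratio over the 5 days could be estimated there, and its TXdXicB6 value (-1.02, SE 0.45, adjusted p = 0.0495) included a day 0 with 2 AS counts. That call was lost without replicate 2 (-0.49, adjusted p = 1 by edgeR) or 3 (-0.95, adjusted p = 0.116), with the libraries of the same table only (-1.05, adjusted p = 0.054) and with a minimum of 3 counts (-1.02, adjusted p = 0.0509).

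**Figure D3:**
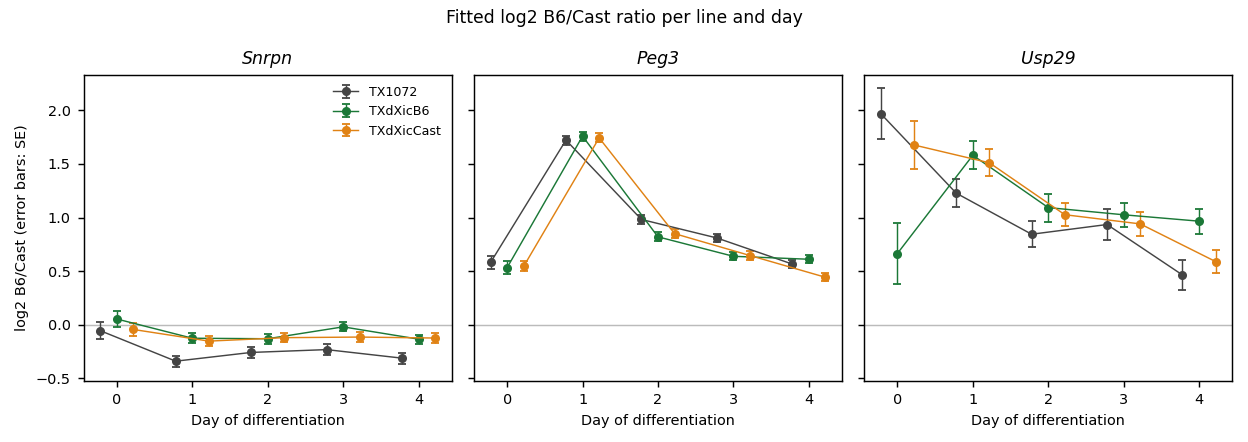
Fitted log2 B6/Cast ratio of Snrpn, Peg3 and Usp29 for each line and day, with error bars of 1 SE and 0 marking equal shares. Peg3 and Usp29 lie above 0 at every day in every line, with Peg3 highest at day 1. Snrpn lies below 0 except in TXdXicB6 at day 0 (0.054, SE 0.076).

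Between lines, Snrpn differed in allelic ratio by 0.17 between TXdXicB6 and TX1072 (SE 0.035, adjusted p = 9.08e-05), where 14.9% of genes differed, and by 0.13 between TXdXicCast and TX1072 (SE 0.034, adjusted p = 0.00362), where 13.5% did. The latter was 0.12 and 0.11 without replicate 1 or 3 and no longer past the threshold. Peg3 differed by -0.087 between TXdXicCast and TX1072 (SE 0.027, adjusted p = 0.0166), and by -0.084 and -0.031, not past the threshold, without replicate 2 or 3. Between TXdXicB6 and TX1072, Peg3 (-0.060, adjusted p = 0.166) and Ndn (0.55, adjusted p = 0.0766) were not called. Peg3 was past the threshold without replicate 1 (-0.12, adjusted p = 0.00569) and Ndn without replicate 3 (0.82, adjusted p = 0.0157). No member was called between the deletion lines, where 5.08% of genes were.

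The share of Peg3 moved and came back. The contrasts with day 1 were added after its shares had been seen. In TX1072 the B6 share was 57.2, 62.4 and 61.0% in the day 0 libraries, and 76.0, 77.0 and 77.1% a day later. Day 2 gave 64.8, 67.0 and 67.3%, day 3 gave 61.9, 65.1 and 64.1%, and day 4 gave 59.3, 60.1 and 59.7%. Day 1 stood above every library of every other day. In TXdXicB6 the day 1 libraries stood at 77.2, 77.2 and 77.2% and the day 4 libraries at 60.9, 61.6 and 58.7%. In TXdXicCast they stood at 77.0, 77.9 and 76.1% and at 59.0, 58.5 and 55.4%. The log2 ratio rose from day 0 to day 1 by 1.14 (SE 0.072), 1.23 (SE 0.072) and 1.20 (SE 0.063) in TX1072, TXdXicB6 and TXdXicCast, and fell from day 1 to day 4 by 1.16 (SE 0.056), 1.15 (SE 0.057) and 1.30 (SE 0.056), with every adjusted p at or under 1.06e-24. Between day 0 and day 1, 8.6%, 8.49% and 13.5% of genes changed their ratio in the 3 lines. Over the whole course from day 0 to day 4 the change was -0.014 (SE 0.070), 0.078 (SE 0.071) and -0.10 (SE 0.061), with none past the test. From day 1 to day 4 the shares of genes changed were 10.3%, 14.5% and 14%. The day 1 rise was not called different between lines, where 0.0118, 0.225 and 0.065% of genes were (0.084, SE 0.10, for TXdXicB6 against TX1072, 0.056, SE 0.095, for TXdXicCast against TX1072 and -0.029, SE 0.096, between the deletion lines).

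Usp29 in the TX1072 libraries stood at 79.7, 77.3 and 84.4% B6 at day 0, at 67.6, 68.9 and 73.8% at day 1 and at 54.1, 60.1 and 59.7% at day 4. The change from day 0 to day 1 did not pass the test in any line, at -0.74 in TX1072 (SE 0.28, adjusted p = 0.093), 0.92 in TXdXicB6 (SE 0.32, adjusted p = 0.0572) and -0.17 in TXdXicCast (SE 0.26, adjusted p = 0.792). Its log2 ratio fell by 1.50 from day 0 to day 4 (SE 0.28, adjusted p = 1.6e-05), where 11.5% of genes changed, and fell by 0.76 from day 1 to day 4 (SE 0.19, adjusted p = 0.00219), where 10.3% did. In TXdXicCast it fell by 1.09 from day 0 to day 4 (SE 0.25, adjusted p = 0.000512), where 19.4% of genes changed. That value was -0.77 and not past the threshold without replicate 3. In TXdXicB6 it changed by 0.30 (SE 0.31, adjusted p = 0.648), where 14.6% of genes changed, from 140 AS counts at day 0. The day 4 change differed between TXdXicB6 and TX1072 by 1.81 (SE 0.42, adjusted p = 0.0048), where 1.42% of genes differed, and between TXdXicCast and TXdXicB6 by -1.39 (SE 0.40, adjusted p = 0.0409), where 2.23% did. Neither passed the threshold without replicate 1, at 1.55 and -1.16, nor the latter without replicate 3, at -1.20. Between TXdXicCast and TX1072 the difference of 0.42 (SE 0.40, adjusted p = 0.898) was not called, where 0.934% of genes were. The day 1 to day 4 change was -0.61 in TXdXicB6 (adjusted p = 0.0076, not past the threshold without replicate 2 or 3, at -0.56 and -0.53) and -0.92 in TXdXicCast (adjusted p = 5.67e-06). Ndn in TXdXicB6 changed by -1.002 from day 1 to day 4 (SE 0.37, adjusted p = 0.0561), and by -1.02 with a block for the replicate number, past the threshold (adjusted p = 0.0444). Without replicate 3 it was -1.30 and also past it (adjusted p = 0.0257). Snrpn in TX1072 changed by -0.28 from day 0 to day 1 (SE 0.096, adjusted p = 0.0468), and no longer passed the test when any 1 replicate was left out, at -0.34 to -0.25.

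The single cells gave the alleles cell by cell. Of 2000 capture sites 1472 cells were kept, with a median of 132847 UMIs and 18322 AS UMIs per cell. Each day was 1 culture, so shares carry exact binomial 95% intervals that cover counting error only and no test between days was made. The intervals of UMI shares treat UMIs as independent, which was not tested. Scaled to CPM within each day, Peg3 went from 112 at day 0 to 1075 at day 4, Snrpn from 29.1 to 171, Snhg14 from 57.9 to 303, Ndn from 12.4 to 44.1 and Usp29 from 5.87 to 35.9.

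Peg3 was read from both alleles within single cells. Of 1071 cells with more than 5 AS UMIs, 939 (87.7%, interval 85.6 to 89.6%) had UMIs of both alleles, 116 had only B6 and 16 only Cast. At least 20% of UMIs lay on each allele in 643 of these cells. The share of cells with both alleles was 50% at day 0, from 32 cells with a median of 7.5 AS UMIs, and 80, 93.4, 90.1 and 92.2% at days 1 to 4. Over 5690 autosomal genes with at least 20% on each allele the share, summed over cells, was 66.2% (median over genes 39.8%), and over 105 genes with 90% or more on 1 allele it was 19.9% (median 6.67%). These shares depend on the UMIs per cell, which differ between genes and days.

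The B6 share of Peg3 UMIs was 55.5, 76.5, 68.9, 60.1 and 64.6% at days 0 to 4, highest at day 1 as in the bulk libraries. Peg3 UMIs overlapping introns, counted apart as unspliced, showed no peak at day 1, at 44.9, 47.5, 46.7 and 60.7% at days 1 to 4. They were few, with 2 at day 0 and 49 at day 1 (interval 30.7 to 59.8%). Among cells with more than 5 AS UMIs the B6 share of Peg3 had an SD over cells of 40.6 percentage points at day 0. At days 1 to 4 the SD was 19.8, 21.0, 24.3 and 22.3. Binomial counting of independent UMIs gives 18.0, 11.6, 11.8, 12.8 and 10.6 at days 0 to 4. UMIs of 1 cell may not be independent, as the 6829 UMIs of Usp29 lay in 681 of the 1472 cells. Whether cells differ in share beyond counting error was not tested. Usp29 gave 64.5, 77.5, 60.5, 54.5 and 54.2% B6 of 1007 AS UMIs in all, highest at day 1, whereas the TX1072 bulk libraries were highest at day 0. Its day 0 share rested on 31 AS UMIs (interval 45.4 to 80.8%). Of cells with more than 5 AS UMIs of Usp29, 10 of 47 had both alleles, 25 only B6 and 12 only Cast. Snhg14 gave 44.3% B6 of 2059 AS UMIs, and by day 46.1, 30.9, 43.3, 47.4 and 53.2%. The intervals were 26.5 to 35.5% at day 1 and 48.8 to 57.6% at day 4. Of 119 cells with more than 5 AS UMIs of Snhg14, 39 had both alleles, 28 only B6 and 52 only Cast. Magel2 had 99 AS UMIs (34.3% B6), Zim1 43 (65.1% B6) and Ndn 5, all B6, too few for a class per cell.

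**Figure D4:**
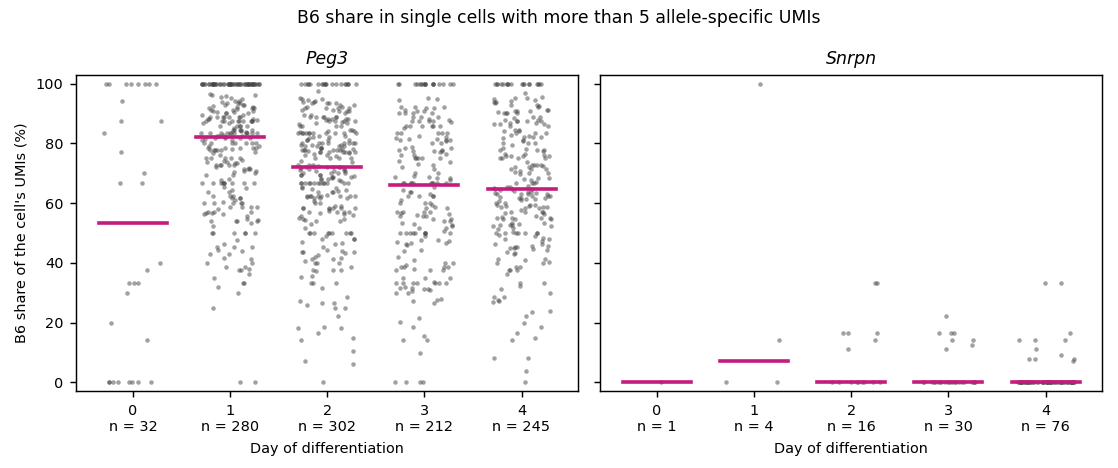
B6 share of AS UMIs per cell in percent for cells with more than 5 AS UMIs, with 1 point per cell by day. Peg3 cells fill the range between the alleles, and Snrpn cells gather at 0% B6.

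Snrpn stood apart from its bulk value. Of 3079 AS UMIs 5.59% were B6 (interval 4.80 to 6.46%), and by day 4.79, 8.51, 8.14, 5.59 and 3.16%. Among 127 cells with more than 5 AS UMIs, 98 had only Cast, 1 only B6 and 28 both. The bulk libraries of the same cell population, TX1072 replicate 1, gave 46.3% B6 of 8982 AS counts. This comparison was added after the value had been seen. Over 5670 autosomal genes with at least 500 AS counts in both assays, the median difference was 3.50 percentage points, and 22 genes (0.388%) were at least as far apart as Snrpn (-40.7 points). UMIs overlapping introns, counted apart as unspliced, gave 58.6% B6 of 1318, with 83.2% at day 0 and 49.8 to 58.2% at days 1 to 4. The single-cell reads came from the 3′ end, where 3 of the 9 exonic SNPs of Snrpn lie within 300 bases. What separates the assays was not tested, and the single-cell share is not read as a class of Snrpn. Pooled over days, Peg3 (66.9% in single cells, 65.0% in bulk), Snhg14 (44.3 and 45.9%) and Usp29 (61.4 and 64.0%) differed by 1.88, -1.65 and -2.61 points. Ndn, Zim1 and Magel2, with only 5, 43 and 99 AS UMIs, differed by 60.5, 19.4 and -2.94 points.

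**Figure D5:**
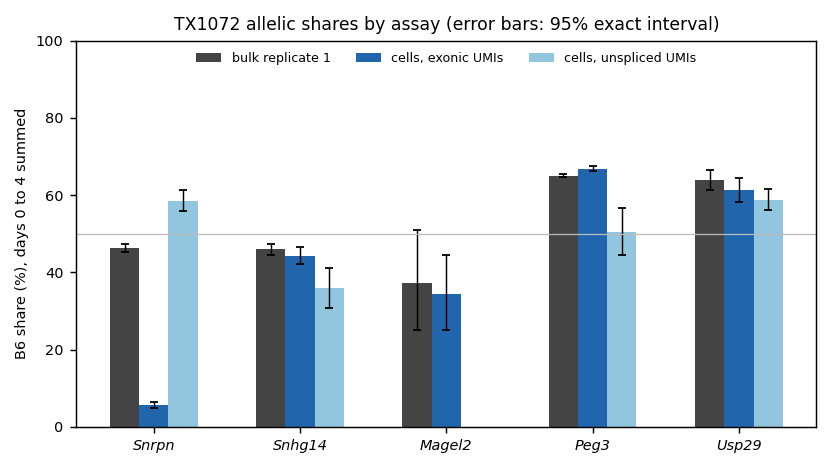
B6 share in single-cell UMIs against the bulk share of TX1072 replicate 1, in percent, for each gene. Snrpn is at 5.59% against 46.3%.

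The promoters were searched for letters bound by factors known at imprinted loci. ZFP57, a zinc finger protein that keeps imprinting marks, binds methylated TGCCGC, and YY1, which binds within the Peg3 domain, binds GCCATNTT. Promoters are the 250 bases before to 50 after each RefSeq start (GRCm38.p6), searched on both strands, and all 7 genes had at least 1. TGCCGC was found in 1 promoter of Snrpn, shared with Snurf, and in that of Zim1, and in 11.6% of 32817 promoters. It is shown in capitals below as its reverse complement in the gene's direction. GCCATNTT was in none of the promoters of the 7 genes and in 6.04% of all. The pair CG, which TGCCGC contains, was also counted and stood in 94.6% of promoters.
Snrpn, chr7:60005184-60005213, minus: gacccctgcattGCGGCAaaaatgtgcgca
Zim1, chr7:6696435-6696464, minus: gaaagtcatcccGCGGCAttccactccggg

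Around these domains the picture was mixed. Of the 16 tested neighbours in the domains, 4 were higher and 6 lower in TX1072 at day 4, with a median log2 change of 0.12, where 30.2% of all genes tested were higher and 29.4% lower. Atp10a, a phospholipid transporter, rose from 4.03 to 69.7 CPM (3.97, SE 0.19), and Gabra5, a GABA receptor subunit, from 0.0487 to 1.62 CPM, whereas Zim3 fell from 3.17 to 0.239 CPM (-3.82, SE 0.39) and Zfp264 from 12.0 to 1.73 CPM (-2.92, SE 0.25). Of 18 neighbours, 14 were BA at day 0, and Gabrg3 was MA with 97.1% B6 of 35 AS counts. Over the autosomal genes classed at day 0 in TX1072, 92.2% were BA and 3.77% MA.

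Among 21 factors of imprint maintenance 5 rose and 9 fell, against 30.2% and 29.4% of all genes tested. Zfp57 fell from 301 to 45.3 CPM (-2.88, SE 0.13, adjusted p = 2.64e-12), Uhrf1, which brings the maintenance methyltransferase to DNA, from 904 to 332 CPM (-1.59, SE 0.12), and Tet2, a 5-methylcytosine oxidase, from 413 to 16.9 CPM (-4.75, SE 0.17). Dnmt3l, a cofactor of de novo methylation, rose from 34.1 to 252 CPM (2.74, SE 0.23). All 21 were BA at every day in every line, where 91.8 to 96.1% of the autosomal genes classed were BA.

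Other imprinted genes were described for comparison. Of 16 tested other paternally expressed genes 9 were higher and 3 lower, with a median change of 1.17, and of 14 other maternally expressed genes 11 were higher and 1 lower, with a median of 2.29, again beside 30.2% higher and 29.4% lower over all genes tested. H19, a non-coding RNA, rose from 4.86 to 1580.1 CPM, Peg10 from 72.6 to 1509.5 CPM (4.23, SE 0.22), Igf2, a growth factor, from 0.632 to 13.1 CPM and Nnat from 0.0454 to 22.0 CPM. Airn rose by 3.03 (SE 0.31) and Cdkn1c, a cell cycle inhibitor, by 3.97 (SE 0.23), while Dcn went from 0.0558 to 4.16 CPM and Calcr from 0.0450 to 2.90 CPM. At day 0 in TX1072, 92.2% of the autosomal genes classed were BA, 4.06% skewed and 3.77% MA. There, 10 of 17 paternally expressed genes were BA and the other 7 had too few AS counts. Of 14 maternally expressed genes 5 were BA, 6 had too few AS counts, and Meg3, Rian and Mirg, non-coding RNAs of 1 domain, were skewed to Cast with 12.5, 12.8 and 13.0% B6. These 3 were named after their values had been seen. At day 4 they stood at 44.0, 44.9 and 48.1% B6.

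The genes most like Snrpn in level over the 15 TX1072 libraries were Tcfl5 (Pearson r of log2(CPM + 0.5) 0.997), Esrp1, Dtna, Foxp1 and Cdkn1c out of 14376 genes. Prrg4 (r 0.992), Esrp1, Igsf9, Ccdc194 and Vrtn were most like Peg3, and 6330403K07Rik (r 0.990), Rom1, Gm7172 and Maml3 among those most like Ndn. In log2 B6/Cast ratio over the 15 groups of line and day, Ilf2 was nearest to Snrpn out of 9681 genes (root mean squared difference 0.0687), with Sall4, Pdcd11 and Rac1 also among the nearest. For Peg3 they were Tfap2c (0.234), Mcf2l, Glb1, Erbb3 and Cystm1, and for Ndn Sh3gl2 (0.298), Rsad1, Hace1, Rab1b and Actn4. The points share libraries and differentiation days, so these are descriptions only.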

How the data were processed

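RNA was sequenced from 45 bulk libraries (3 lines, 5 days, 3 replicates) and from 2000 capture sites of single TX1072 cells. The authors aligned reads with STAR 2.5.2b to mm10 masked at B6/Cast SNPs, split them by allele with SNPsplit and counted reads per gene with featureCounts (bulk) or distinct UMIs (single cells). The deposited values are raw counts, in total, B6 and Cast tables. Genes over 90% on 1 allele, which the study's own filter removed, were kept here. The deposited SNP list gives the position and the B6 and Cast bases of each SNP and was used to place SNPs in exons of GENCODE vM21.

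Samples were grouped by the labels. The 7 genes, the lists and the tests were chosen with earlier results of these data known. Levels were tested with edgeR 4.0.16 (quasi-likelihood, TMM, Benjamini-Hochberg adjustment) per table on total counts, and CPM and RPKM were computed from them with exon lengths of the annotation. Allelic ratios were tested with edgeR on paired B6 and Cast counts with a library term, over genes with at least 10 AS counts in at least 3 libraries. DESeq2 1.42.0, other normalizations and filters, omission of each replicate and a replicate block were tried. The single cells are those of the study's cell classification. The intervals shown for shares are exact binomial and cover counting error only. Scripts were tested on simulated data.

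Differentiation was induced on different days for the replicates per the study's methods, so a number marks a day. The main level tests held no term for the replicate number, and the block for it was an alternative only. Deviations of same-numbered libraries correlated with a mean r of 0.23 in TX1072, 0.42 in TXdXicB6 and 0.35 in TXdXicCast, against -0.11, -0.20 and -0.18 for other numbers. Genes named are the 7, up to 4 per other list with the largest change at day 4 in TX1072, genes monoallelic at day 0 there, and the 5 most like Snrpn, Peg3 and Ndn, of which some are not reported here. Meg3, Rian and Mirg fall outside this rule.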

Additional observations from a re-analysis of the deposited data

Results flagged for a closer look

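The change of the Usp29 allelic ratio from day 0 to day 4 differed between lines by a test of the difference itself, with TXdXicB6 above TX1072 by 1.81 on the log2 B6/Cast scale (SE 0.42, adjusted p = 0.0048), where 1.42% of genes differed. TXdXicCast lay below TXdXicB6 by the same test (-1.39, SE 0.40, adjusted p = 0.0409), where 2.23% did. The TXdXicB6 day 0 libraries held 8, 65 and 67 AS counts of Usp29 at 50.0, 61.5 and 62.7% B6, against 158, 66 and 32 at 79.7, 77.3 and 84.4% in TX1072. The first of these libraries also had the lowest AS share of all. Without replicate 1 the differences were 1.55 and -1.16 and neither passed the threshold. Without replicate 3 the latter was -1.20, and without the libraries of low AS share -1.34, again not past it. Over the alternatives the adjusted p ran from 0.00384 to 0.236 for the former and from 0.0272 to 0.579 for the latter. These contrasts were added after the shares had been seen, and line and library type cannot be told apart in the first. The second uses the TXdXicCast RNA of day 0, described as degraded and fragmented more mildly. The part of this in the difference was not tested.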

How the results depend on the processing

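All level changes of the 7 genes from day 0 to days 1 to 4 kept their direction in TX1072 and, at day 4, in the deletion lines under every alternative tried, and Peg3 kept its call of B6 excess and both day 1 contrasts in every line. The count of classed combinations on both alleles was 101 and stood between 96 and 101 under other thresholds and without 1 replicate. Usp29 in 1 combination was skewed without replicate 2. In all, 50 values of single genes changed sign or reached 0, 33 lost their call and 4 gained one, while 379 level values and 983 allelic values kept both. The cause of the changes was not tested. Magel2 ratios that include day 0, over days 0 to 4 or as a change from it, are limited by depth. They rest on 0 to 2 AS counts at day 0 in TX1072, TXdXicB6 and TXdXicCast. In TX1072 and TXdXicCast no such ratio could be estimated. Magel2 ranges below that include day 0 of these 2 lines are thus not measured values. Leaving out 1 replicate gave 516 to 1057 genes for TXdXicCast against TXdXicB6 levels (1658 with all), and a replicate block gave 2611. The ranges of changed ratios without 1 replicate were 1565 to 2091 (2469 with all) for TXdXicB6 and 2153 to 2637 (3276) for TXdXicCast from day 0 to day 4. From day 0 to day 1 they were 938 to 1048 (1456) for TX1072, 858 to 1137 (1436) for TXdXicB6 and 1371 to 1788 (2283) for TXdXicCast. From day 1 to day 4 they were 1145 to 1249 (1748) for TX1072 and 1561 to 1819 (2371) for TXdXicCast. Between TXdXicCast and TX1072, 4 to 27 (38) genes differed in the day 1 change and 90 to 113 (158) in the day 4 change. The block gave 58 genes for the former and 27 between the deletion lines. Beyond these counts and Ndn in TXdXicB6 the block changed no call of the 7 genes. Without the libraries of low AS share the ratio of Ndn between the deletion lines was 0.0099 and the day 1 change of Zim1 in TXdXicB6 -0.072, and with the block the day 1 change of Ndn in TXdXicCast was 0.013, each of the other sign. Values that changed sign or reached 0 without 1 replicate had these ranges. For levels between the deletion lines they were -0.019 to 0.11 for Ndn and -0.27 to 0.33 for Snhg14. For ratios over days 0 to 4, Zim1 ran from -0.077 to 0.15 in TX1072, from -0.0047 to 0.39 in TXdXicB6 and from -0.26 to 0.12 in TXdXicCast, and Ndn from -0.022 to 0.28 in TXdXicCast. Against TX1072, where no Magel2 ratio could be estimated, its TXdXicB6 value ran from -0.48 to 0.078. Usp29 against TX1072 ran from -0.078 to 0.0065 in TXdXicB6 and from -0.091 to 0.14 in TXdXicCast. Between the deletion lines Ndn ran from -0.21 to 0.13 and Usp29 from -0.014 to 0.13. For the day 4 change, Peg3 ran from -0.11 to 0.042 in TX1072, Magel2 from -0.65 to 2.95 and Zim1 from -1.26 to 0.46 in TXdXicB6, and Ndn from -0.70 to 0.055 in TXdXicCast. For the day 1 change in TX1072, Zim1 ran from -0.21 to 0.93. Magel2, for which no such change could be estimated, ran from -2.43 to 0 without changing sign. In TXdXicB6, Magel2 ran from -1.21 to 2.83, Snhg14 from -0.24 to 0.083 and Zim1 from -1.005 to 1.59, and in TXdXicCast Magel2 from -0.54 to 0.54, Ndn from -0.71 to 0.48 and Snhg14 from -0.055 to 0.39. From day 1 to day 4 in TX1072, Magel2 ran from -1.09 to 1.68, Snhg14 from -0.011 to 0.095 and Snrpn from -0.017 to 0.056. In TXdXicB6, Magel2 ran from -0.60 to 0.56 and Snrpn from -0.057 to 0.025, and in TXdXicCast Magel2 from -1.03 to 0.032, Ndn from -0.44 to 0.0065, Snrpn from -0.034 to 0.085 and Zim1 from -0.71 to 0.13. For differences in the day 1 change, TXdXicB6 against TX1072 gave -1.21 to 5.26 for Magel2 and -1.27 to 1.80 for Zim1, and TXdXicCast against TX1072 gave -0.20 to 0.83 for Ndn. Between the deletion lines they were -3.37 to 1.26 for Magel2, -0.089 to 0.019 for Peg3, -0.086 to 0.60 for Snhg14 and -0.15 to 1.78 for Zim1. For the day 4 change, TXdXicB6 against TX1072 gave -0.48 to 1.61 for Zim1, TXdXicCast against TX1072 -0.090 to 0.56 for Magel2, and the deletion lines -3.44 to 0.12 for Magel2 and -0.028 to 0.56 for Snhg14. In single cells the unspliced UMIs alone gave 58.6% B6 for Snrpn, 35.9% for Snhg14 and 50.6% for Peg3. Cells with both alleles were 44.8% for Snhg14 with more than 10 UMIs, and 83.6 and 92.8% for Peg3 with more than 2 and more than 10.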
